A study of Mus musculus with 25 samples.

Results

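CpG-poor protein-coding promoters are the start sites of genes whose surrounding DNA holds few CG dinucleotides. The rule that defines them reads the mouse reference sequence and no peak. A gene was a member when, for every curated RefSeq transcript, the CpG count within 500 bp of the transcription start site (TSS) was below 0.35 of the count that its C and G content would give. This rule was met by 6664 of 21000 protein-coding genes, with 7299 of 26032 curated TSSs, and all 6664 were scored with no filter on low values. The remaining 14336 genes served as the comparison, among them 3535 with a ratio from 0.35 to below 0.6. Spin1 and the histone mark H3K4me3 were mapped by ChIP-seq in primary myoblasts, which are cultured muscle precursor cells. The cells came from limb muscle of C57BL/6 mice (the N substrain in the methods) aged 10 days, were enriched by preplating and were grown without a genetic change or treatment named in the labels. The antibody entry of the H3K4me3 library reads H3K4me, while its title reads H3K4me3, and the latter name is used throughout. Each antibody gave 1 library, and an input library of the same cells served the peak calling as control. The Spin1 library gave 17106 peaks and the H3K4me3 library 30763 peaks. Since there is no replicate, no p-value is given, and all intervals are 95% intervals that cover counting error over genes only.

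Most mammalian promoters lie in CpG islands, which are open and carry H3K4me3 in many cell types. Promoters outside of CpG islands often belong to tissue-specific genes, may hold a TATA box, and tend to gain H3K4me3 only where the gene is used. Spin1 binds H3K4me3 through its Tudor-like domains and is therefore called a reader of this mark.

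Promoter sequence is shown first, since the low CpG content defines the set. The stretches below are the 150 bases before the TSS on the transcribed strand, 5′ to 3′, from the RefSeq promoters of GRCm38.p6, with each CG in capitals. None of them overlaps a curated transcript. The first 6 had both Spin1 and H3K4me3. Tnnc1, at chr14:31208162-31208311 on the + strand, encodes the troponin C of slow and cardiac muscle and has the lowest ratio of the sequences shown. Actc1, at chr2:114052876-114053025 on the - strand, encodes cardiac actin, which developing skeletal muscle also makes. Chrna1, at chr2:73580339-73580488 on the - strand, encodes a subunit of the acetylcholine receptor. Cdh15, at chr8:122848224-122848373 on the + strand, encodes M-cadherin, a marker of myoblasts. Sparc, at chr11:55420081-55420230 on the - strand, encodes a matrix protein and had the widest Spin1 peak of the set. Ifit3b, at chr19:34607807-34607956 on the + strand, is an interferon-induced gene and had the lowest ratio among genes with both peaks and no other promoter under them. Myh3, at chr11:67078150-67078299 on the + strand, encodes embryonic myosin heavy chain and is shown for H3K4me3 without Spin1. Alb, at chr5:90460720-90460869 on the + strand, encodes serum albumin of the liver and is shown for the absence of both peaks. Des, at chr1:75360142-75360291 on the + strand, encodes the intermediate filament protein desmin and stands outside of the set as a contrast.
Tnnc1: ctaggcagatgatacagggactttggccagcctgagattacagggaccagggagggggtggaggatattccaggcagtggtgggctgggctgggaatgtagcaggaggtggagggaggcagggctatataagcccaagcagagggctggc
Actc1: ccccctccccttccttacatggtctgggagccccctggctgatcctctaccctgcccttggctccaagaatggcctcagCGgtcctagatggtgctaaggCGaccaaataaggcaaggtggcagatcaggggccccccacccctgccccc
Chrna1: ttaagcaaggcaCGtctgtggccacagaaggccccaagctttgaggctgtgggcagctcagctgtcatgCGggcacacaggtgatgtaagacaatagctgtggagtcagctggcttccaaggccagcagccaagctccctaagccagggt
Cdh15: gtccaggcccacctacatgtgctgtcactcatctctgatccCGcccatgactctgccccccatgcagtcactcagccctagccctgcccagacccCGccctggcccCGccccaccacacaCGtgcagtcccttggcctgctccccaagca
Sparc: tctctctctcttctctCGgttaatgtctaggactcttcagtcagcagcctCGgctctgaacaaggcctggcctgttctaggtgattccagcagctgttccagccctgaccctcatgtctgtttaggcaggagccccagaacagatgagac
Ifit3b: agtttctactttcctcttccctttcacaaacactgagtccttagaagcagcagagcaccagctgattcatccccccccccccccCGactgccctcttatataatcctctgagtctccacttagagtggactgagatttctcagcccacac
Myh3: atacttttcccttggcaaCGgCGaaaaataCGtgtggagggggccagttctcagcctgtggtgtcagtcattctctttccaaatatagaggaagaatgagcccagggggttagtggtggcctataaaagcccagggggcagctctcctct
Alb: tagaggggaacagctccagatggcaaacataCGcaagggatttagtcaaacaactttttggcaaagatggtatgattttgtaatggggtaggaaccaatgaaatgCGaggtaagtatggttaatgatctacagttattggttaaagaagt
Des: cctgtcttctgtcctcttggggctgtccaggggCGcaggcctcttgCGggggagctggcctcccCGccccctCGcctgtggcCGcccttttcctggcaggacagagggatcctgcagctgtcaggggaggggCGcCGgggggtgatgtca
The stretch of Tnnc1 held 0 CG, that of Ifit3b 1, those of Actc1, Chrna1, Sparc and Alb 2 each, that of Myh3 3 and that of Cdh15 4, against 7 for Des. The ratio within 500 bp of the TSS was 0.0809 for Tnnc1, 0.225 for Actc1, 0.227 for Chrna1, 0.262 for Cdh15 and 0.659 for Des. The sequences with both peaks thus overlap in CpG content with those of Myh3 and Alb.

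To determine how often CpG-poor promoters carry Spin1 and H3K4me3, peaks with at least a partial overlap with TSS ± 1 kb were counted per gene. Spin1 was present at 392 of the 6664 CpG-poor genes (5.88%, Wilson interval from 5.34 to 6.47%), against 56.7% of all protein-coding genes. H3K4me3 was present at 821 (12.3%, 11.6 to 13.1%), against 68% of all protein-coding genes. Of the 821 CpG-poor genes with H3K4me3, 384 also had Spin1 (46.8%, 43.4 to 50.2%), against 83.3% of all genes with H3K4me3. Among the remaining genes the shares were 80.3% for Spin1, 93.8% for H3K4me3 and 85.5% for Spin1 at promoters with H3K4me3. The differences between CpG-poor and remaining genes were -74.4 percentage points for Spin1 (Newcombe interval from -75.2 to -73.5), -81.5 for H3K4me3 (-82.4 to -80.6) and -38.8 for Spin1 at promoters with H3K4me3 (-42.2 to -35.3). CpG-poor promoters therefore carried each peak less often, and those with H3K4me3 carried Spin1 less often as well. Neither peak was found at 5835 CpG-poor genes (87.6%), H3K4me3 alone at 437 and Spin1 alone at 8. No remaining gene had Spin1 alone. A peak list of a whole culture gives no share of cells, so weak occupancy of many cells and strong occupancy of few cells cannot be told apart.

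Within the set, occupancy rose with the ratio. Spin1 was found at 0.791% of the 1265 genes with a ratio below 0.1 and at 17.7% of the 727 genes from 0.3 to below 0.35. H3K4me3 rose over the same range from 1.66% to 35.4%. Beyond the threshold, from 0.35 to below 0.4, the shares were 28.5% (25.2 to 32.2%) and 49.3% (45.4 to 53.2%), above those just inside it. The share of H3K4me3 promoters with Spin1 moved less, from 38.1% (20.8 to 59.1%) in the lowest class to 50.2% (44.1 to 56.3%) in the highest class of the set, and these intervals overlap. Just beyond the threshold, from 0.35 to below 0.4, it was 57.9% (52.4 to 63.2%), with an interval that overlaps that of the highest class of the set. From 0.4 to below 0.5 it was 53.1% (49.9 to 56.3%), and from 0.5 to below 0.6 it was 70.6% (68.3 to 72.9%). Against all genes with a ratio from 0.35 to below 0.6, of whose H3K4me3 promoters 63.2% had Spin1, the difference was -16.4 percentage points (-20.3 to -12.6).

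**Figure D1:**
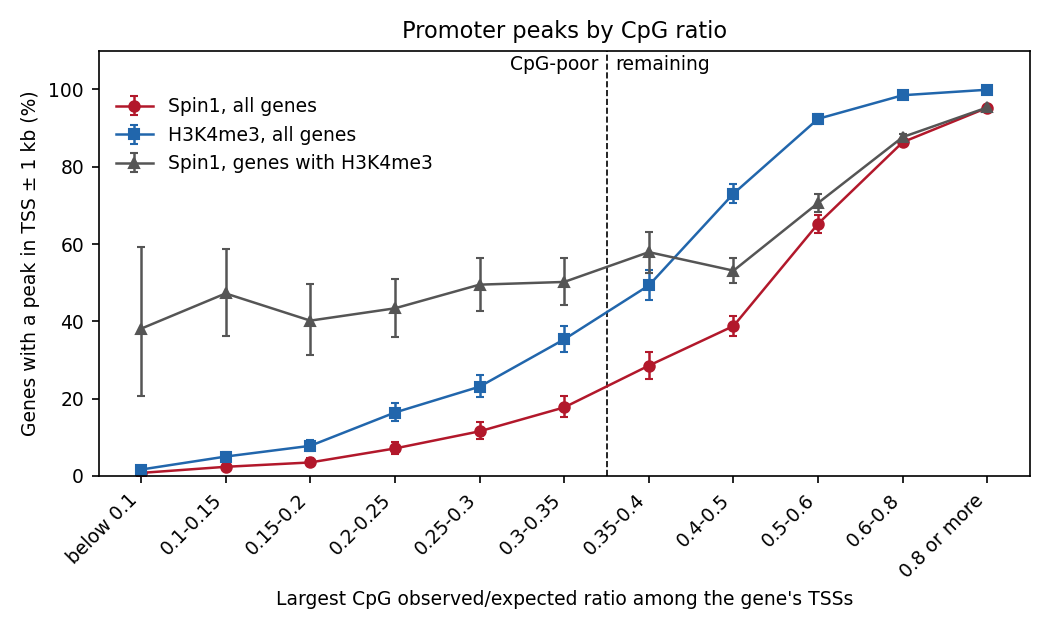
Share of genes with a peak in TSS ± 1 kb (%) against the largest CpG observed/expected ratio among the TSSs of the gene, with 95% Wilson intervals as bars and the threshold of 0.35 as a dashed line. Both peaks become more frequent with the ratio, while Spin1 at genes with H3K4me3 stays between 38.1% and 50.2% left of the line.

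The 3 genes just inside the threshold had ratios of 0.349783, 0.349855 and 0.349985. Of these, Nyap2 had neither peak, whereas Sulf1, a heparan sulfate endosulfatase, and Ifitm3, an interferon-induced membrane protein, had both. Just outside were Olfr224 at 0.35, Apoa2 at 0.350078 and Gpr151 at 0.350106, of which Apoa2, an apolipoprotein gene, had both peaks and the others neither. Relative to 1 of the 2 TSSs of Apoa2, Spin1 lay from -3887 to -1557 bp and H3K4me3 from -4608 to -1223 bp. Both peaks of Apoa2 were thus counted through its other TSS, and another gene has a TSS within 5 kb.

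H3K4me3 peaks of CpG-poor promoters were narrower. The median was 2037 bp (order-statistic interval from 1926 to 2127 bp) compared with 3311 bp (3278 to 3343 bp) at the remaining genes, so the Spin1 share was compared within classes of H3K4me3 width. With H3K4me3 peaks under 1 kb, 5 of 140 CpG-poor promoters had Spin1 (3.57%), against 2.15% of the remaining ones, a difference whose interval includes 0 (-2.02 to 6.11 percentage points). From 1 to below 2 kb the shares were 24.4% and 32.8%, and from 2 to below 3 kb 67% and 86.8%. At 3 kb or more they were 82.9% and 97.7%, a difference of -14.8 percentage points (-20.4 to -10.4). The Spin1 share of CpG-poor promoters thus rose with the width of the H3K4me3 peak, and it was lower than that of the remaining genes in each class from 1 kb on. Within classes of the peak score, the direction depended on the class. Scores in both lists level off at 3100, with few above, and 399 of the 821 H3K4me3 promoters of the set reached this value. At a score of 3100 or more the Spin1 share was 78.7% against 92.1%, a difference of -13.4 percentage points (-17.7 to -9.63). Below 3100 it was 16.6% against 8.02%, so that CpG-poor promoters with weak H3K4me3 peaks had Spin1 more often by 8.56 percentage points (4.85 to 12.7). Against the genes with a ratio from 0.35 to below 0.6, which are closest to the set, the difference was 8.60 percentage points below 3100 (4.70 to 12.8) and -4.89 at 3100 or more (-9.44 to -0.789). In classes of width, this comparison gave an interval that includes 0 under 1 kb (-2.39 to 6.13) and from 1 to below 2 kb (-9.25 to 2.76), and differences of -14.9 from 2 to below 3 kb (-22.0 to -8.25) and -10.5 at 3 kb or more (-16.3 to -5.68).

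**Figure D2:**
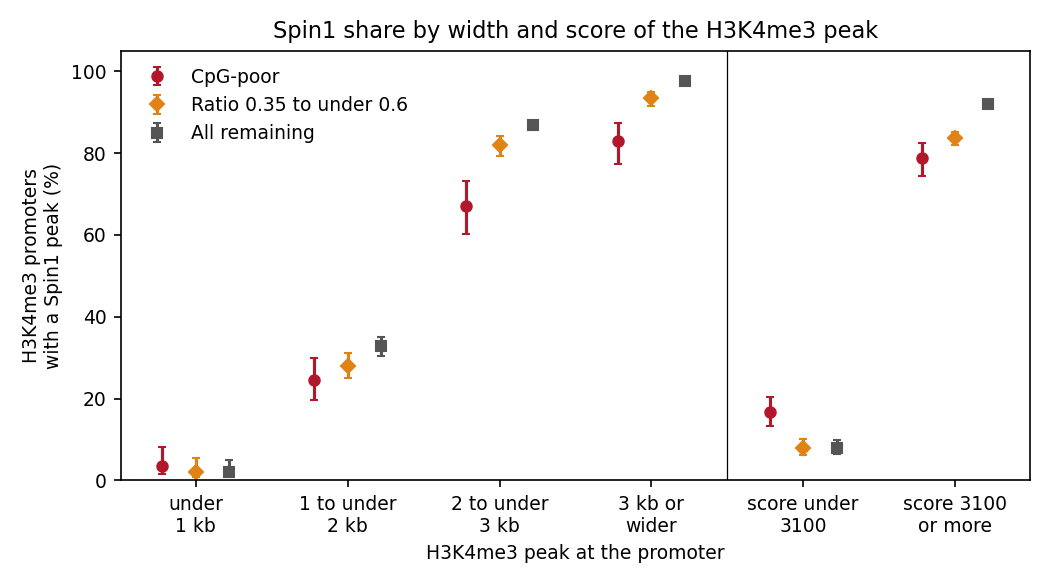
Share of H3K4me3 promoters with Spin1 (%) in 4 classes of H3K4me3 width and 2 classes of H3K4me3 score, for CpG-poor genes, genes with a ratio from 0.35 to below 0.6 and all remaining genes, with 95% Wilson intervals. The CpG-poor share lies below the others at wide peaks and above them at scores under 3100 (16.6% against 8.02%).

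At CpG-poor promoters the median Spin1 peak was 1536 bp wide (1410 to 1661 bp), compared with 2311 bp (2291 to 2330 bp) at the remaining genes, and the median score was 746 compared with 3091. H3K4me3 peaks of CpG-poor promoters were 2841 bp wide in the median where Spin1 was present and 1308 bp where it was not. A TSS lay inside the Spin1 peak at 70.2% (65.4 to 74.5%) of the CpG-poor genes with Spin1 and at 97.5% (97.2 to 97.8%) of the remaining ones. For genes with 1 TSS and 1 peak, the Spin1 peak center was located a median of 392 bp (325 to 476 bp) downstream of the TSS, against 320.5 bp (312 to 329 bp). Genes with a ratio from 0.35 to below 0.6 had a median Spin1 width of 1704.5 bp (1671 to 1739 bp) and a median score of 1197. The Spin1 score was 3100 or more at 19.5% of these genes with Spin1, compared with 19.1% in the set. A TSS lay inside the peak at 91.8% of them. The peaks of CpG-poor promoters were thus narrower than in either group and less often covered the TSS itself. In width and score they were closer to the genes from 0.35 to below 0.6 than to all remaining genes. Some peaks belong to a neighbor as well. All Spin1 peaks of 63 of the 392 genes (16.1%) reached TSS ± 1 kb of a gene outside of the set, and the median width was 2271 bp for these and 1410 bp for the other 329. Of the 728 genes with an H3K4me3 peak of their own, 323 had Spin1 (44.4%, 40.8 to 48%).

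**Figure D3:**
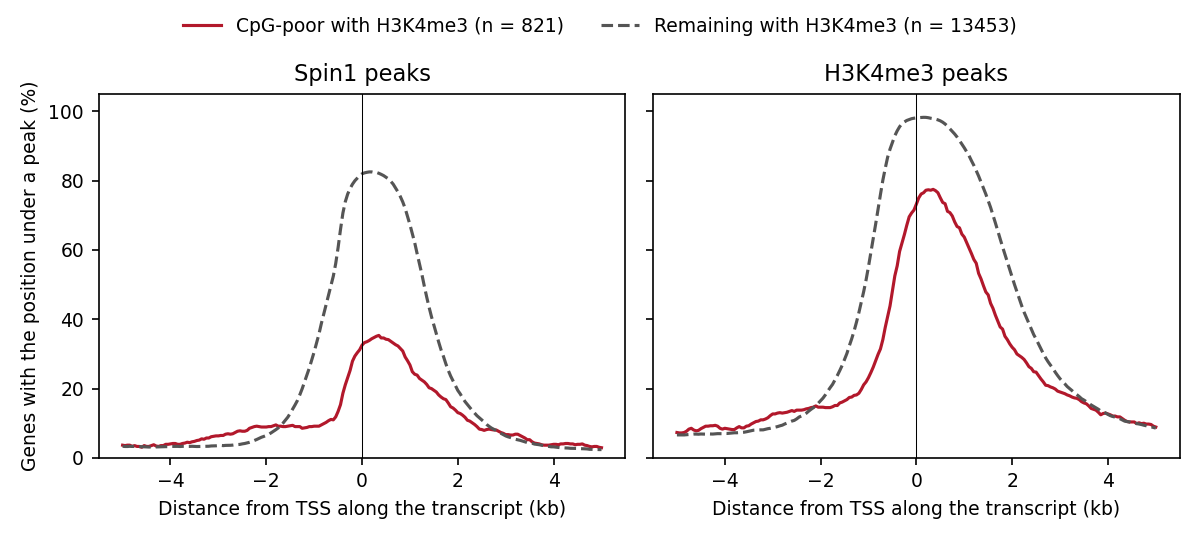
Share of genes (%) whose position at a given distance from the TSS (kb, along the transcript) lies under a Spin1 peak (left) or an H3K4me3 peak (right), for the 821 CpG-poor and 13453 remaining genes with H3K4me3 at the promoter. At CpG-poor genes, Spin1 coverage is 32.5% at the TSS and 13.4% at 500 bp upstream, against 82% and 60.7% at the remaining genes.

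Genes of the contractile apparatus were examined next, since many of them have CpG-poor promoters. In 6 muscle lists, 82 of 128 genes were CpG-poor. Of these, 40 had Spin1 (48.8%, 38.3 to 59.4%) and 58 had H3K4me3 (70.7%, 60.1 to 79.5%), compared with 5.88% and 12.3% of the whole set. Among the 58 with H3K4me3, 18 had no Spin1, and 24 of the 82 had neither peak. Most intervals of the single lists overlap, and only that of the thick filament genes lies apart, below those of the thin filament genes and of calcium handling and excitation. Differences between lists were not tested.

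Thin filament genes had Spin1 at 11 of 15 CpG-poor promoters (73.3%, 48.0 to 89.1%) and H3K4me3 at 13. Spin1 was present at the actin genes Acta1, Actc1 and Acta2, at the genes of troponin T (Tnnt1, Tnnt2, Tnnt3), troponin I (Tnni1, Tnni2) and troponin C (Tnnc1, Tnnc2), and at Lmod3, which encodes an actin nucleator. The Spin1 peak of Tnnt3, the fast troponin T, was 2736 bp wide with a score of 2204, and the ratio of this promoter was 0.0827. At Acta2, the smooth muscle actin, it was 4479 bp wide. The Spin1 peak of Tnnc2, the fast troponin C, was 1106 bp wide with a score of 243 and thus among the weaker ones. Of the 2 Spin1 peaks at Tnnc1, the peak over the TSS had a score of 397, while the wider peak upstream, of 3310 bp, also reached the promoter of a gene outside of the set. The Spin1 peak of Actc1 began 309 bp downstream of the TSS, so that the sequence printed for this gene lies outside of it. H3K4me3 without Spin1 was seen at Actg2 and Lmod1, and neither peak at Tnni3, the cardiac troponin I, and Tmod4.

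Genes of calcium handling and excitation had Spin1 at 13 of 19 CpG-poor promoters (68.4%, 46.0 to 84.6%). These include 3 subunits of the acetylcholine receptor (Chrna1, Chrnd, Chrng) and the genes Musk and Rapsn, which are needed to cluster this receptor at the neuromuscular junction. Chrna1 had a Spin1 peak of 5761 bp with a score of 3100, Chrnd one of 2492 bp with a score of 2717 and Chrng one of 1625 bp with a score of 760. Chrne, the subunit that replaces the one encoded by Chrng in adult muscle, had neither peak. Spin1 was also found at Cacna1s and Cacng1, which encode subunits of the muscle calcium channel, at the calcium pump gene Atp2a1, at Casq1, Jsrp1 and Srl of the sarcoplasmic reticulum, at the caveolin gene Cav3 and at Jph2. The peak at Jph2, which joins the sarcoplasmic reticulum to the plasma membrane, was 6665 bp wide, and that at Casq1 only 682 bp. Trdn had H3K4me3 alone, and Sln, Pln, Scn4a and Clcn1 had neither peak.

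Of the Z-disc genes, 7 of 17 had Spin1 (41.2%, 21.6 to 64.0%) and 13 had H3K4me3. Spin1 was located at Ldb3, Xirp1, Ankrd1, Hspb7, Synpo2l and at Trim54 and Trim63, which encode ubiquitin ligases of the sarcomere. Ankrd1 and Synpo2l had peaks of 3868 bp and 4126 bp, the latter at the more downstream of its TSSs, whereas the peak at Trim63 was 1184 bp wide with a score of 240. H3K4me3 alone was seen at Tcap, Myoz2, Csrp3, Xirp2, Ankrd23 and Nrap, and neither peak at Myot, Myoz1, Myoz3 and Ankrd2. The scores of these H3K4me3 peaks ran from 62.65 at Ankrd23, 63.24 at Xirp2 and 84.58 at Myoz2 to 2703 at Nrap. The lowest score in the H3K4me3 list was 50.03, and the peak of Xirp2 began 531 bp downstream of the TSS. Thick filament genes had Spin1 at 2 of 16 CpG-poor promoters, Mybph and Myom3 (12.5%, with an interval up to 36.0%), and H3K4me3 at 8. The myosin heavy chain genes Myh1, Myh3 and Myh8 had H3K4me3 alone, with peaks of 1315 bp, 5727 bp and 801 bp, and Myh4, Myh6, Myh7 and Myh13 had neither peak. Mybpc2, Myom2 and Mylk2 also had H3K4me3 alone, and Myl2, Myl3, Mybpc3 and Mylk4 neither peak. Of the genes of muscle metabolism, 5 of 13 had Spin1 (38.5%, 17.7 to 64.5%), namely Eno3, Pgam2 and Pygm of glycolysis and glycogen breakdown, the cytochrome oxidase gene Cox8b and the myoglobin gene Mb. The peak at Eno3, of 9189 bp, also covered the promoter of Pfn1, while those at Cox8b and Mb were 855 bp and 1204 bp wide. The creatine kinase gene Ckm and the cytochrome oxidase genes Cox6a2 and Cox7a1 had H3K4me3 alone, and Ckmt2, Ampd1, Phkg1, Gpd1 and Ppp1r3a had neither peak. Both CpG-poor regulators, Mymk and Mymx, which drive the fusion of myoblasts, had both peaks, with Spin1 peaks of 2913 bp and 3075 bp. The peak at Mymx also reached Slc29a1.

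**Figure D4:**
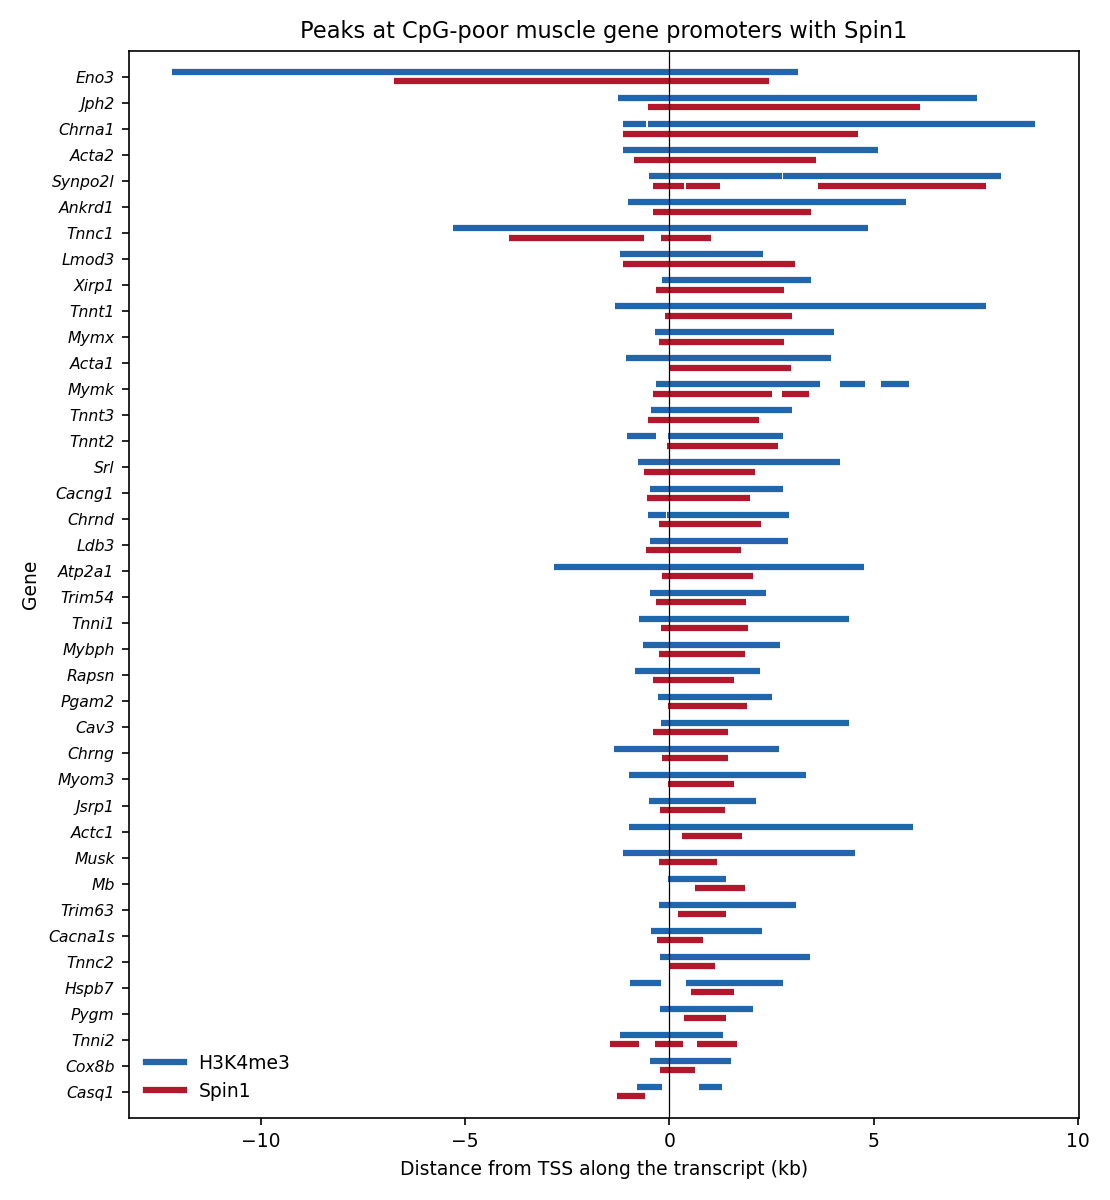
Spin1 and H3K4me3 peaks at the 40 CpG-poor muscle genes with Spin1, by distance from 1 TSS per gene (kb, along the transcript), ordered by the width of the Spin1 peak. Widths run from 9189 bp at Eno3 to 682 bp at Casq1; a Spin1 peak crosses the TSS at most genes, lies downstream of it at Acta1, Actc1, Hspb7, Mb, Pygm, Tnnc2 and Trim63 and upstream of it at Casq1.

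Lists of other cell types were read in the same way. Genes of extracellular matrix and fibroblasts had Spin1 at 11 of 16 CpG-poor promoters (68.8%, 44.4 to 85.8%) and H3K4me3 at 14. Among them were the collagen genes Col1a1, Col3a1, Col5a2, Col6a1 and Col6a3, and Sparc, Postn, Timp1, Spp1, S100a4 and Lgals1. Dcn, Lum and Ogn, which encode small proteoglycans, had H3K4me3 alone, and Mmp3 and Mmp13 had neither peak. Myoblasts make many of these matrix proteins themselves, and preplating is done to remove fibroblasts, which attach to the dish first. The part of any remaining fibroblasts in these peaks was not tested. The 5 lists of leukocytes, endothelial cells, adipocytes, hepatocytes and keratinocytes held 56 CpG-poor genes. None of these had Spin1, with an interval (0 to 6.42%) that includes the share of the whole set, 5.88%. H3K4me3 was found at 7 (12.5%, 6.19 to 23.6%), which were Cd68, Cdh5, Tek, Plin4, Fabp4, Lor and Trp63, close to the 12.3% of the whole set. Neither share thus sets these lists apart from CpG-poor genes in general. The scores of the 7 H3K4me3 peaks ran from 51.78 at Cd68 and 66.51 at Trp63 to 3100 at Lor, with 50.03 as the lowest score of the list. The peak of Cd68 ended at -701 bp, and that of Lor began 576 bp downstream of the TSS. Among the CpG-poor genes with neither peak were the defining genes Ptprc, Pecam1, Adipoq, Alb and Krt5. Of the 15 genes of these lists outside of the set, 6 had Spin1 (40%) and 9 had H3K4me3, compared with 80.3% and 93.8% of all remaining genes. All 8 myoblast markers had both peaks. Of these, Cdh15 and Vcam1 are CpG-poor, while Myod1, Myf5, Pax7, Des, Itga7 and Ncam1 lie outside of the set, where both peaks are frequent.

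**Figure D5:**
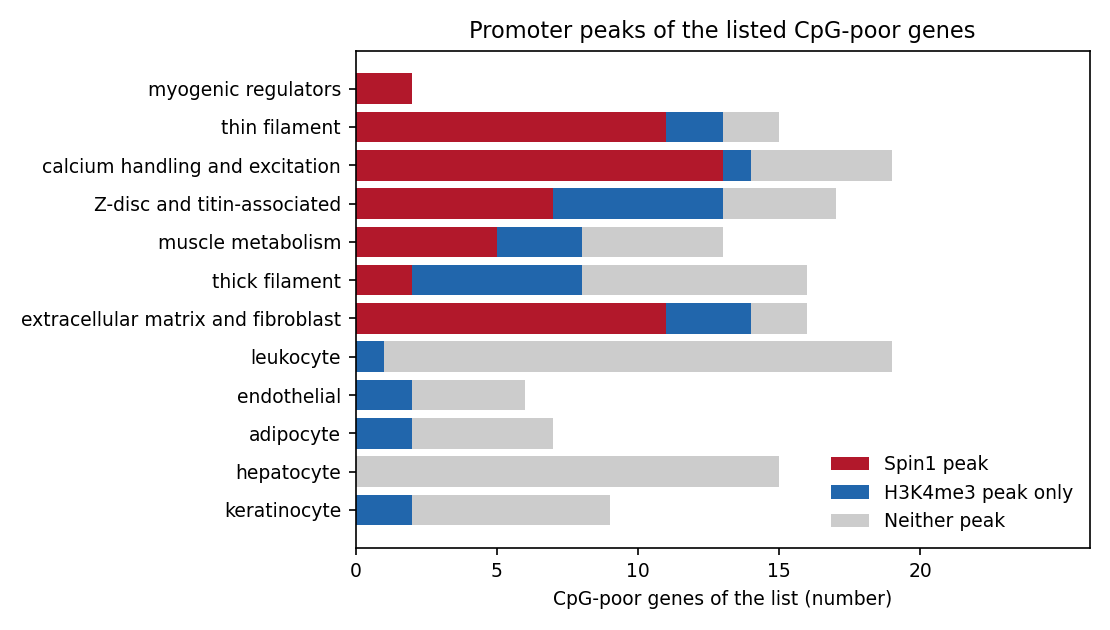
Number of CpG-poor genes in each list with a Spin1 peak, with an H3K4me3 peak only or with neither peak in TSS ± 1 kb. Spin1 is present in the muscle and matrix lists, with 2 of 16 thick filament genes as the lowest share and, beside both regulators, 11 of 15 thin filament genes as the highest, and at 0 of 56 genes in the 5 lists of other cell types below, where the interval (0 to 6.42%) includes the 5.88% of the whole set.

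The widest Spin1 peaks of the set were those of Sparc (9279 bp) and Eno3, followed by Rdh5, Jph2, Cald1, Lsp1, Chrna1, Spaca6, Col5a2 and Tnks1bp1 (4840 bp). Cald1 encodes caldesmon, which binds actin, and Col5a2 a fibrillar collagen. The peak at Sparc ran from -598 to 8680 bp relative to the TSS and lay inside an H3K4me3 peak of 11124 bp. The peak at Rdh5 was shared with Bloc1s1, and that at Spaca6 with the microRNA genes Mir99b, Mirlet7e and Mir125a, so these widths cannot be assigned to the CpG-poor promoter alone.

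At the other end, the genes with the lowest ratios that had both peaks and shared neither with a promoter outside of the set were Ifit3b, Tnnt3, Adamts4, Ccl7, Mrgbp, Sardh, Cyp4f16, Ikbke, Mmp19 and Klf1, with ratios from 0.0816 to 0.109. Apart from Tnnt3, they include Adamts4 and Mmp19, which encode matrix proteases, the chemokine gene Ccl7 and the kinase gene Ikbke of innate immunity. The Spin1 peak of Adamts4 was 2797 bp wide with a score of 1928, whereas that of Ifit3b was 684 bp wide with a score of 76.4. Klf1, a regulator of red blood cell genes, had a Spin1 peak of 1371 bp that began 443 bp downstream of the TSS. The Spin1 peak of Mrgbp began 951 bp downstream and thus reached only the edge of TSS ± 1 kb. The largest ratio within 2 kb of the TSS was 0.771 for Klf1 and 0.693 for Mrgbp, so that a CpG-rich stretch lay close to these promoters, but only 0.114 for Ifit3b and 0.137 for Tnnt3.

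Spin1 without H3K4me3 was found at Smim38, Galntl5, S100a2, Soat2, Fam71f1, Adgrg3, Ifit1bl1 and Gm20594. Their scores ranged from 510 at Smim38 to 51.2 at Gm20594, close to the lowest score in the Spin1 list, 50.7. The peak of Smim38 began 987 bp downstream of the TSS, and that of Adgrg3 ended at -962 bp. Both thus reached only the edge of TSS ± 1 kb. Soat2 encodes a cholesterol esterifying enzyme and S100a2 a calcium-binding protein. The widest H3K4me3 peaks without Spin1 were those of Ccr10 (6903 bp), Ssc5d (6412 bp), Ifitm5 (6149 bp), Myh3 (5727 bp) and Dqx1 (5709 bp). The H3K4me3 peaks of Ccr10, a chemokine receptor gene, and Dqx1 also reached promoters outside of the set. The peak of Ifitm5 ended at -764 bp relative to its TSS, while that of Myh3 ran from -263 to 5463 bp and thus covered the TSS and the sequence printed above.

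Gene families, 23 in number, were read against the Spin1 share of the whole set, 5.88%, and only part of them is described here. Sensory receptor genes were 1467 of the 6664 members (22%), and 2 of them had Spin1, Olfr1033 and Tas1r1. Of 1079 CpG-poor olfactory receptor genes 2 had H3K4me3, and of 350 vomeronasal receptor genes none had either peak (0 to 1.09% for Spin1). Neither peak was found at 69 defensin genes (0 to 5.27%), 25 kallikrein genes (0 to 13.3%) and 16 type I interferon genes (0 to 19.4%), and the intervals of the kallikrein and interferon genes include the share of the set. The same holds for the 101 solute carrier genes, of which 2 had Spin1 (0.545 to 6.93%), and the 83 cytochrome P450 genes, of which 6 had it (7.23%, 3.36 to 14.9%). Spin1 was found at 5 of 15 collagen genes (15.2 to 58.3%), the 5 named in the matrix list above, at 4 of 12 genes of S100 proteins (13.8 to 60.9%) and at 2 of 9 genes of guanylate-binding proteins (6.32 to 54.7%). Zinc finger genes named Zfp had Spin1 at 19 of 47 CpG-poor members (40.4%, 27.6 to 54.7%). Of the Zfp genes with Spin1, only Zfp968, Zfp970 and Zfp973 lie in a cluster on chromosome 2 with TSSs from 174450595 to 178430515. In this range, chosen after the values were seen, 16 of 25 CpG-poor genes had Spin1, most of them not named Zfp. All 16 have a promoter with a near-identical copy at another gene (at least 95% identity over 270 bases), so that the peaks of these cluster genes are uncertain. Such a copy was present for 19 of the 25 CpG-poor genes of the cluster. In the whole set, 814 genes (12.2%) had such a copy, among them 17 of the 384 genes with both peaks (4.43%) and 790 of the 5835 with neither (13.5%).

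CpG-poor promoters with peaks differed from those without in base composition and position. The median GC content within 500 bp of the TSS was 52.4% (51.9 to 52.9%) with both peaks, 50.5% (49.9 to 51.1%) with H3K4me3 alone and 44.8% (44.6 to 45.1%) with neither. The TSS of another gene lay within 5 kb for 26.3% (22.1 to 30.9%), 20.6% (17.1 to 24.6%) and 7.85% (7.19 to 8.57%) of these genes. Genes with the largest ratio within 2 kb of the TSS at 0.5 or more had Spin1 at 103 of 362 promoters (28.5%, 24.1 to 33.3%), whereas those with this value below 0.25 had it at 27 of 2492 (1.08%, 0.746 to 1.57%). The share of H3K4me3 promoters with Spin1 was 52.6% (45.6 to 59.4%) and 40.4% (28.6 to 53.3%) in these classes, with overlapping intervals. Of the 437 genes with H3K4me3 alone, 61 had a Spin1 peak within 5 kb of the TSS (14.0%, 11.0 to 17.5%), compared with 229 of the 5835 genes with neither peak (3.92%, 3.46 to 4.45%).

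Short motifs were searched on both strands in the 300 bases from 250 before to 50 after the TSS, which the RefSeq table gives for 16853 of the 21000 genes and 5374 of the 6664 members. Each gene was searched at 1 TSS, which for 16499 of the 16853 genes was the TSS used for distances. Peaks were counted at any TSS of a gene, so a motif and a peak can belong to different TSSs. The E-box CAGCTG, which myogenic bHLH factors bind, was found in 15.2% of all 16853 promoters. Among CpG-poor promoters it was found in 88 of 291 with both peaks (30.2%, 25.2 to 35.7%), 74 of 311 with H3K4me3 alone (23.8%, 19.4 to 28.8%) and 733 of 4766 with neither (15.4%, 14.4 to 16.4%). The difference between promoters with both peaks and with neither was 14.9 percentage points (9.76 to 20.5), while that to promoters with H3K4me3 alone was 6.45 with an interval that includes 0 (-0.643 to 13.5). Among the muscle lists, 20 of 29 CpG-poor promoters with Spin1 (69%, 50.8 to 82.7%) and 12 of 30 without it (40%, 24.6 to 57.7%) held this E-box. The intervals of these shares overlap, which does not decide whether the shares differ, and no interval of the difference was computed. In the sequences above, it begins 92 and 44 bases before the TSS of Chrna1, 60 before that of Sparc, 92 before that of Ifit3b and 36 before that of Des. It is contained in the general E-box CANNTG, which was found in 68.3% of all promoters in 84.2% (79.6 to 87.9%) of CpG-poor promoters with both peaks and in 80.8% (79.7 to 81.9%) of those with neither, a difference whose interval includes 0 (-1.41 to 7.26 percentage points).

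The GC box GGGCGG was found in 48.9% of all promoters, in 30.6% (25.6 to 36.1%) of CpG-poor promoters with both peaks and in 7.81% (7.08 to 8.60%) of those with neither. This motif holds a CG itself and is therefore not independent of the ratio that defines the set. It was present 3 times in the stretch of Cdh15. A TATA box, searched as TATAAA on the transcribed strand from 45 to 15 bases before the TSS, was found in 3.07% of all promoters, in 3.44% (1.88 to 6.21%) of CpG-poor promoters with both peaks and in 6.92% (6.24 to 7.68%) of those with neither. Of the sequences shown, it was present in Myh3, 29 bases before the TSS. The M-CAT motif CATTCCT was found in 4.50% of all promoters and in 8.93% (6.17 to 12.8%) of CpG-poor promoters with both peaks, against 6.13% (5.48 to 6.84%) of those with neither, a difference whose interval includes 0 (-0.0480 to 6.70 percentage points). The AP-1 motif TGANTCA was found in 6.93% of all promoters, in 12% (8.78 to 16.3%) of CpG-poor promoters with both peaks and in 12.9% (11.9 to 13.8%) of those with neither, a difference of -0.834 percentage points with an interval that includes 0. The MEF2 motif TAAAAATA was found in 1.97% of all promoters, in 1.37% (0.536 to 3.48%) of CpG-poor promoters with both peaks and in 4.36% (3.82 to 4.98%) of those with neither. A further MEF2 motif, TATTTATA, was found in 1.64%, 1.03% (0.351 to 2.99%) and 3.27% (2.80 to 3.82%) of these. Both MEF2 motifs were thus less frequent at CpG-poor promoters with both peaks than at those with neither, by -2.99 (-4.03 to -0.815) and -2.24 percentage points (-3.11 to -0.231). In the muscle lists, 3 of 59 CpG-poor promoters held TAAAAATA (5.08%, 1.74 to 13.9%) and 6 held TATTTATA (10.2%, 4.74 to 20.5%). Of the 29 with Spin1 these were 2 and 1, and of the 30 without it 1 and 5. The motif CCAAT was found in 39.2% of all promoters, in 36.8% (31.4 to 42.4%) of CpG-poor promoters with both peaks and in 40.5% (39.1 to 41.9%) of those with neither. The CArG box, which serum response factor binds, was found in 1.54%, 2.41% (1.17 to 4.88%) and 1.89% (1.54 to 2.32%), with intervals that overlap. A CArG box began 47 bases before the TSS of Actc1. Compared with CpG-poor promoters with H3K4me3 alone, those with both peaks held more often the GC box, by 7.43 percentage points (0.354 to 14.5), CANNTG, by 6.70 (0.386 to 12.9), and the M-CAT motif, by 4.43 (0.418 to 8.67). The differences were -8.57 for CCAAT (-16.3 to -0.702) and -2.83 for TATTTATA (-5.67 to -0.277). For the TATA box, TAAAAATA, AP-1 and the CArG box the interval of this difference includes 0. No adjustment was made for the number of motifs. GC content and ratio differ between these classes of promoters, and their part in the motif shares was not tested.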

How the data were processed

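Peak lists of the Spin1 and H3K4me3 libraries were used, 2 of 25 samples in the series. The authors deposited peak positions on mm10 with a score; the submitters' processing notes name MACS 1.4.2 and Bowtie2. Peaks were called against input, and the Bowtie2 version is not given in the sources used here. The score gives no read count, so the depth behind a peak is unknown. The lowest scores were 50.66 and 50.03.

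Ratios were computed from the GRCm38.p6 sequence and TSSs taken from RefSeq annotation release 108.20200622. All coordinates are counted from 1. Shares have 95% Wilson intervals, differences Newcombe intervals and medians order-statistic intervals, which were tested on simulated data. The rule for members uses sequence only, but the members and lists were chosen with earlier results of these data known. By rule, genes named are the CpG-poor muscle list members with Spin1, the 10 widest Spin1 peaks, genes with Spin1 alone, the 10 lowest ratios with both unshared peaks, 3 genes on each side of the threshold and the 5 widest H3K4me3 peaks without Spin1. Other genes of the lists and families were named after their values were seen, and so were the printed sequences chosen. Alternatives of window, threshold, TSS, score and gene set were computed. Copies of promoters were searched with BLAST+ 2.17.0. Computation used pandas 2.3.3, SciPy 1.17.1 and NumPy 2.4.6 under Python 3.11.15, and plots matplotlib 3.10.9. Other samples of the series were not analysed here.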

Additional observations from a re-analysis of the deposited data

How the results depend on the processing

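The 3 differences between CpG-poor and remaining genes were computed under 15 alternatives each, of which 14 were planned and 1, without genes with a near-identical promoter at another gene, was chosen after seeing the data. All 45 values were negative with an interval that excludes 0. The difference in Spin1 ranged from -75.1 percentage points with a threshold of 0.45 to -59.4 with the top 50% of peaks by score, that in H3K4me3 from -83.8 with the TSS inside a peak to -69.9 with the peak center inside the window, and that in Spin1 at H3K4me3 promoters from -45.5 with the peak center inside the window to -36.5 with a score of 100 or more. Relative to their own size, the shares themselves moved more. The number of CpG-poor genes with Spin1, 392 as reported, was 151 with the top 50% of peaks, 164 with a threshold of 0.25 and 773 with one of 0.45, and the share ranged from 2.27 to 9.79%. The number with H3K4me3, 821 as reported, was 471, 366 and 1526 under these settings, and the share ranged from 7.07 to 19.3%. The number with both, 384 as reported, was 151, 157 and 765, and 209 with the peak center inside the window. The share left its interval under 10 of 15 alternatives for Spin1 and 12 of 15 for H3K4me3. The Spin1 share of their H3K4me3 promoters left it under 3 of 15, with 32.1% for the top 50% of peaks as the lowest value. No paired analysis was possible because each antibody has 1 library. Depth and replicate spread are unknown, so a promoter without a peak may be occupied below detection.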
